A study of Mus musculus with 6 samples.

Results

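The Vps genes take their name from vacuolar protein sorting, the process in yeast in which most of their relatives were first found. They were taken as every gene of the expression table whose symbol is Vps followed by a number, with or without further letters, which gave 35 of 54242 gene symbols and 247 transcripts. The set was put forward with its levels in fasted and fed mice already known, so the fasted against fed values of its members are given as a description and carry no test of their own. RNA was measured in dorsal root ganglia, the clusters of sensory neurons beside the spinal cord, in 3 libraries from male C57bl/6 mice fed ad libitum and 3 from male C57bl/6 mice kept on intermittent fasting for 10 days. All mice were 8-10 weeks old, and the labels say that they were killed after 24 hours without saying what the 24 hours followed. L4-6 ganglia were dissociated and enriched for neurons on a gradient of 15% bovine serum albumin, so RNA of glia and other cells that passed the gradient was measured together with that of neurons. No label says whether a library came from 1 animal or a pool, so the spread between libraries may be partly technical.

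Proteins that reach the endosome, the first sorting compartment inside the cell, are returned to the cell surface, sent back to the Golgi apparatus or passed on to the lysosome for breakdown. Vps proteins carry out these steps as subunits of stable complexes. Retromer and retriever retrieve cargo, the ESCRT complexes bud receptors into the endosome for degradation, HOPS and CORVET tether membranes before fusion, and GARP and EARP tether carriers that arrive at the Golgi apparatus or leave the endosome. Sensory neurons move receptors and growth factor signals in endosomes along very long axons, and faults in several Vps genes cause disease of the nervous system.

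Levels were deposited as TPM, the share of each transcript among all transcripts of a library, corrected for transcript length, so levels of different genes can be set beside each other. All 35 were protein-coding genes, lay on 16 chromosomes and had a mean above the limit of 1 TPM used for the tests, so none was lost to the filter. Gene means ran from 8.10 TPM for Vps13b, the member nearest the limit, to 199.9 TPM for Vps29, a span of 24.7-fold, and no member lay below the limit. These means sum all transcripts of a gene, and over protein-coding transcripts alone Vps28 and Vps35 lay above Vps29. The 7 members at 100 TPM or more were Vps29, Vps28, Vps35, Vps41, Vps25, Vps4b and Vps4a. The 3 under 10 TPM were Vps13b, Vps37b and Vps37d.

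Stretches of 3 transcript models are printed first because the differences of Vps4b, Vps26c and Vps54 turn on them. They are read on the gene's strand from GENCODE M21 transcripts (build GRCm38). The first 2 show how little of a non-coding model lies outside the exons of the main coding transcript, with the bases outside those exons in capitals, and the third shows in capitals the coding bases of Vps54-201 that Vps54-202 lacks.
Vps4b-205 (chr1:106782735-106782794, minus strand): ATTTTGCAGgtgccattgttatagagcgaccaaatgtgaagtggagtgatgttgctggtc
Vps26c-203 (chr16:94504187-94504341, minus strand): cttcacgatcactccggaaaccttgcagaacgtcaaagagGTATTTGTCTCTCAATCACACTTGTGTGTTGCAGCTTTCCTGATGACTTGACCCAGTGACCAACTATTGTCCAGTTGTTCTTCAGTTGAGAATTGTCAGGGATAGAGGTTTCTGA
Vps54-201 (chr11:21264630-21264689, plus strand): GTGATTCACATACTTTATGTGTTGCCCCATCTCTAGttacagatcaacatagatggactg

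Members far apart in level, such as Vps29 and Vps13b, were separated in every library, while others of similar level overlapped, as the plot of levels by complex shows.

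**Figure D1:**
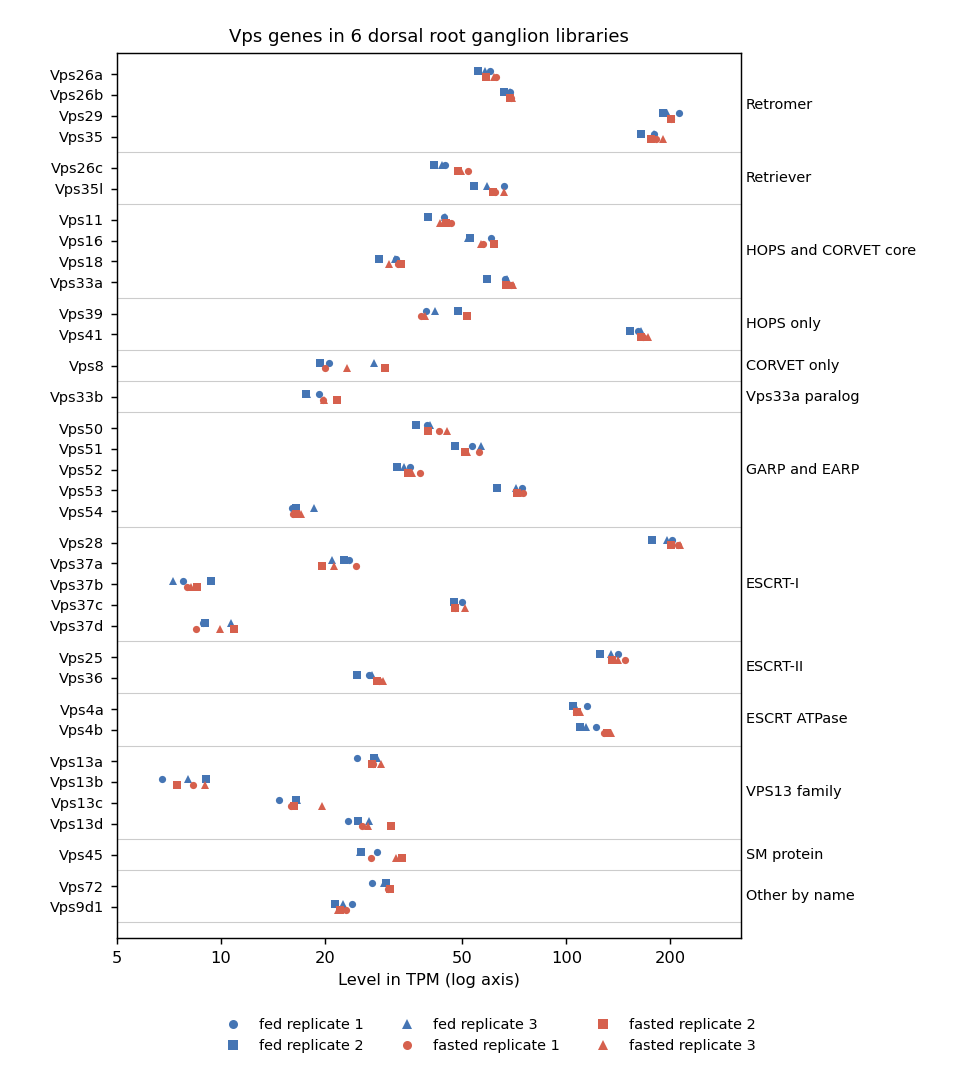
Level of each of the 35 Vps genes in TPM (log axis) in the 3 fed (blue) and 3 fasted (red) libraries, grouped by complex, with 1 point per library and the replicate number given by the point's shape. Means run from 8.10 TPM (Vps13b) to 199.9 TPM (Vps29), and for 29 of the 35 genes the fed and fasted points overlap.

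Across the whole set, 30 of 35 members were higher in the fasted libraries by fitted fold change and 5 were lower (Vps54, Vps37a, Vps39, Vps9d1 and Vps4a). Over all 15097 genes tested, 62.5 percent were higher. The 3 fasted values all lay above the 3 fed values for 6 members (Vps26c, Vps41, Vps33b, Vps36, Vps4b and Vps72), which is 17.1% of the set, against 12.7 percent of all genes. For no member did all fasted values lie below all fed values, against 5.07 percent of all genes. Nothing is read from these shares, because the contrast was known when the set was chosen. The median log2 difference, fasted minus fed on the log2(TPM + 1) scale, was 0.07 for the members and 0.03 for all genes, and single members ran from -0.04 to 0.22 with standard errors of 0.036 to 0.17.

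No member passed the threshold of 0.05 in limma's test after Benjamini-Hochberg adjustment over all genes, where 1 gene of 15097 did (0.00662 percent), the predicted gene Gm23257. The smallest adjusted p of a member in limma was 0.42, and 5 members were higher and 0 lower at an unadjusted p under 0.05, against 6.72 percent and 3.22 percent of all genes. The plot of fold changes sets each member's difference and its standard error beside the distribution over all genes.

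**Figure D2:**
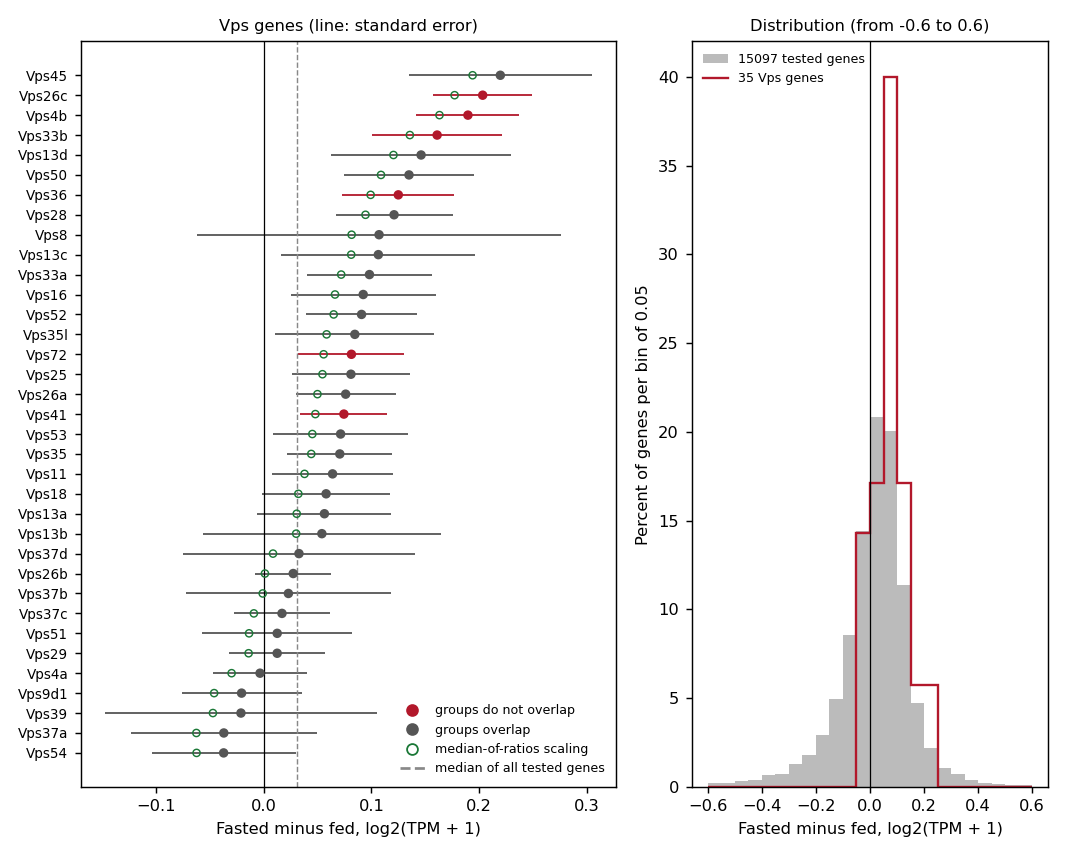
Left, difference fasted minus fed on the log2(TPM + 1) scale for each Vps gene (filled points; lines are the standard error, n = 3 per group), with the same difference after median-of-ratios scaling (open circles); the dashed line is the median of all tested genes. Right, percent of the 35 Vps genes (line) and of the 15097 tested genes (grey) per bin of 0.05; the members lie between -0.04 and 0.22.

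TPM values of a library share a fixed total, so the share of genes above 0 moves with the scale. Mitochondrial genes took 5.71%, 8.995% and 6.91% of the TPM of fed replicates 1, 2 and 3, and 5.16%, 5.24% and 4.83% of fasted replicates 1, 2 and 3. With these genes left out of the total, 25 members and 50.3% of all genes were higher in the fasted libraries. After median-of-ratios scaling, which sets the libraries level by the typical gene, 26 members were higher and 9 lower, and 52.9 percent of all genes were higher. The 4 members without overlap on that scale were Vps26c, Vps33b, Vps36 and Vps4b (11.4% of the set), against 8.46 percent of all genes, and for none did all fasted values lie below all fed values, against 7.23 percent of all genes.

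Fed replicate 2 stood apart from the other libraries. Of the 35 members, 22 had their lowest TPM there, and 19 still did after median-of-ratios scaling. Its 4 skeletal muscle markers summed to 2085 TPM, against 36.8 to 205.5 TPM in the others, and its 8 neuron markers summed to 18027 TPM, the lowest of the 6 values. Without this library the members' median log2 difference was 0.043 in place of 0.07, and 28 of 35 were higher.

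The summed level of the 35 Vps genes was 2136, 1969 and 2091 TPM in fed replicates 1 to 3, and 2173, 2159 and 2200 TPM in fasted replicates 1 to 3. All 3 fasted sums lay above all 3 fed sums. Over coding transcripts alone the sums were 1943, 1782 and 1918 TPM in the fed and 1969, 1903 and 2007 TPM in the fasted libraries, and the groups overlapped, with fasted replicate 2 below fed replicates 1 and 3. The sum of the 8 neuron markers, among them Rbfox3, Tubb3, Uchl1 and the neurofilament genes, was 19974, 18027 and 19468 TPM in the fed and 20785, 19664 and 20852 TPM in the fasted libraries, and 8 of 8 markers were higher in the fasted group by fold change. The Vps sum per 1000 TPM of neuron markers was 106.9, 109.2 and 107.4 in the fed and 104.6, 109.8 and 105.5 in the fasted libraries. This ratio overlapped between the groups, with the fasted libraries holding both the lowest and the highest value. In a dissociated ganglion, a change in the share of neurons and a change in RNA per neuron cannot be told apart.

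**Figure D3:**
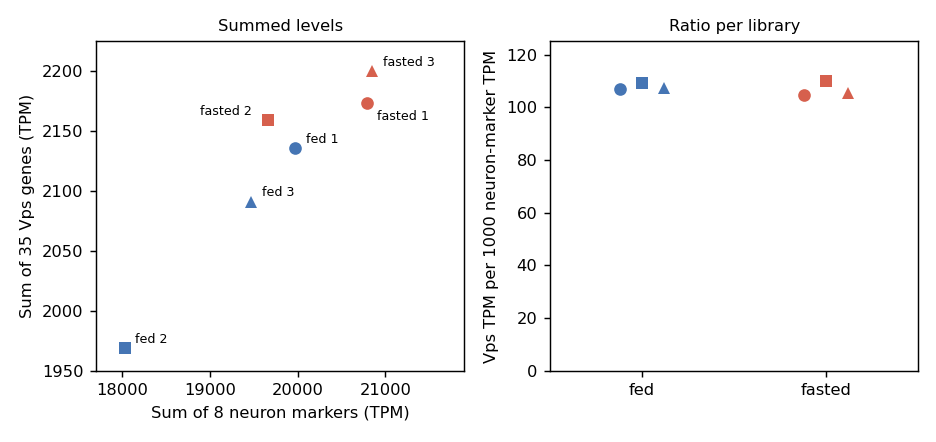
Left, summed TPM of the 35 Vps genes against summed TPM of 8 neuron markers in each library (both axes start above 0); right, the same as Vps TPM per 1000 neuron-marker TPM. Fed replicate 2 is lowest on both axes, at 1969 and 18027 TPM, and the ratio lies between 104.6 and 109.8 in all 6 libraries.

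The neuron marker sums overlapped between the groups, with fasted replicate 2 below fed replicate 1. Marker sums of some other cells did separate the groups, and their part in the members' values was not tested. The 8 macrophage markers summed to 77.5 to 96.3 TPM in the fed and 50.9 to 65.8 TPM in the fasted libraries, with 0 of 8 higher in the fasted group. The 5 endothelial markers summed to 127.1 to 157.2 TPM and 102.7 to 114.7 TPM, and the 5 erythroid genes to 1284 to 1564 TPM and 1715 to 3277 TPM. Satellite glia, Schwann cell and fibroblast marker sums overlapped between the groups. No marker was at 0 in any library.

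Retromer, which returns cargo from the endosome to the Golgi apparatus or the cell surface, is built from Vps35 as its scaffold, Vps29 and 1 of the paralogs Vps26a and Vps26b. Vps29 was at 211.4, 190.7 and 195.4 TPM in the fed and 200.7, 200.2 and 201.1 TPM in the fasted libraries, and Vps35 at 179.0, 164.5 and 179.0 TPM and at 181.9, 176.1 and 190.7 TPM. Both overlapped between the groups. The ratio of Vps29 to Vps35 was 1.05 to 1.18 over the 6 libraries, while the ratio of Vps35 to Vps26b was 2.49 to 2.75. Coding models held 81.8% of the TPM of Vps29. Over coding transcripts alone Vps29 lay below Vps35 in every library, at 164.9 ± 9.66 against 174.0 ± 8.24 TPM in the fed libraries (SD, n = 3 each). In the fasted libraries Vps29 and Vps35 were then at 162.1 ± 9.15 and 182.6 ± 7.22 TPM.

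The paralogs Vps26a and Vps26b were present at similar levels. Vps26a was at 59.96, 55.3 and 58.2 TPM in the fed and 62.5, 58.6 and 61.8 TPM in the fasted libraries. Vps26b was at 68.5, 66.0 and 68.5 TPM in the fed and 69.0, 68.5 and 69.4 TPM in the fasted libraries, and it made up 52.5% to 54.4% of the pair. Both overlapped between the groups. The sum of the pair, 121.3 to 131.6 TPM, lay below the level of Vps35 in every library.

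Retriever shares Vps29 with retromer and adds Vps26c and Vps35l, which work with the sorting nexin Snx17 in the return of integrins and other receptors to the surface. Vps26c (chr16:94497783-94526830, minus strand, GRCm38) was at 44.5, 41.5 and 43.7 TPM in the fed and 51.9, 48.6 and 49.4 TPM in the fasted libraries. The groups did not overlap, at 43.2 ± 1.59 and 49.9 ± 1.72 TPM (SD, n = 3 each), a log2 difference of 0.20 (SE 0.046). Vps35l was at 66.1, 53.8 and 59.1 TPM in the fed and 62.1, 61.4 and 65.9 TPM in the fasted libraries, and its groups overlapped. It was 1.20 to 1.49 times as high as Vps26c with all models summed. Over coding transcripts alone the distance was larger. Vps35l was then at 55.2 ± 5.68 TPM and Vps26c at 28.5 ± 1.53 TPM in the fed libraries (SD, n = 3 each). In the fasted libraries they were at 57.2 ± 1.63 and 29.1 ± 0.28 TPM.

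By the deposited split between models, the difference of Vps26c did not lie in its main coding transcript. Vps26c-201, which codes for the protein, was at 27.2, 28.2 and 30.2 TPM in the fed and 29.1, 29.4 and 28.8 TPM in the fasted libraries, with overlap. Vps26c-203, annotated as a retained intron and 660 bases long, was at 17.3, 13.2 and 13.6 TPM in the fed and 22.6, 19.2 and 19.1 TPM in the fasted libraries, without overlap (log2 difference 0.44). Of its 660 bases, 545 (82.6%) lie in the exons of Vps26c-201, and the 115 others are the capitals of the stretch printed for it. Reads within the shared bases can fit both models, so the split between them is an estimate. Summed over coding transcripts alone, Vps26c was at 28.5 ± 1.53 TPM in the fed and 29.1 ± 0.28 TPM in the fasted libraries (SD, n = 3 each), a log2 difference of 0.03.

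HOPS and CORVET share a core of Vps11, Vps16, Vps18 and the SM protein Vps33a, which binds SNARE proteins before membranes fuse. HOPS acts at late endosomes and lysosomes through Vps39 and Vps41, and CORVET at early endosomes through Vps8 and Tgfbrap1. The core subunits were at means of 31.5 TPM (Vps18), 43.7 TPM (Vps11), 56.8 TPM (Vps16) and 66.4 TPM (Vps33a), and each overlapped between the groups. The place of Vps16 rests on non-coding models. Over coding transcripts alone it was at a mean of 30.3 TPM in both groups. Vps18 was then at 30.7 and 32.1 TPM and Vps11 at 39.9 and 41.8 TPM in the fed and fasted groups. The log2 differences of the core subunits, all models summed, were 0.06 (Vps11), 0.09 (Vps16), 0.06 (Vps18) and 0.10 (Vps33a).

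Vps41 was far above its partners. It was at 161.5, 152.3 and 163.8 TPM in the fed and 166.4, 164.9 and 171.7 TPM in the fasted libraries, and the groups did not overlap (159.2 ± 6.09 and 167.6 ± 3.57 TPM, SD, n = 3 each, log2 difference 0.07, SE 0.040). The gap between the highest fed and the lowest fasted value was smaller than either SD, and the groups overlapped after median-of-ratios scaling. Vps41 was 3.60 to 3.98 times as high as Vps11, 4.96 to 5.61 times as high as Vps18 and 3.13 to 4.42 times as high as Vps39 over the 6 libraries.

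Vps39 and Vps8 had the widest spread of the tethering subunits, and in both the deposited split placed it in short non-coding models. Vps39 was at 39.1, 48.6 and 41.7 TPM in the fed and 38.01, 51.4 and 38.9 TPM in the fasted libraries, with the highest value of each group in replicate 2. The model Vps39-203, a processed transcript of 343 bases, was at 0, 14.2 and 2.83 TPM in the fed and 0, 11.8 and 0 TPM in the fasted libraries. Over coding transcripts alone, Vps39 was at 36.5 ± 2.44 TPM in the fed and 36.9 ± 1.07 TPM in the fasted libraries (SD, n = 3 each), where the sum of all models gave 43.2 ± 4.92 and 42.8 ± 7.497 TPM.

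Vps8 was at 20.6, 19.3 and 27.7 TPM in the fed and 20.003, 29.9 and 23.2 TPM in the fasted libraries. Its retained-intron model Vps8-211, 525 bases long, was at 6.28 TPM in fed replicate 3, 5.79 TPM in fasted replicate 2 and 0 TPM in the other 4 libraries, and those 2 libraries held the highest gene values. The standard error of the log2 difference was 0.17 with all models and 0.067 over coding transcripts, where the 2 groups were at 20.04 ± 1.09 and 21.6 ± 1.58 TPM (SD, n = 3 each).

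Vps33b, the paralog of Vps33a, pairs with Vipas39 outside HOPS and CORVET in traffic toward specialised lysosomes. Vps33b (chr7:80269649-80291754, plus strand, GRCm38) was at 19.2, 17.6 and 17.7 TPM in the fed and 19.7, 21.6 and 19.9 TPM in the fasted libraries. The groups did not overlap, at 18.2 ± 0.89 and 20.4 ± 1.06 TPM (SD, n = 3 each), a log2 difference of 0.16 (SE 0.060). Over coding transcripts the groups again did not overlap, and the difference was 0.17. Vps33a was at 66.3, 58.7 and 67.4 TPM in the fed and 69.0, 66.8 and 70.04 TPM in the fasted libraries, with overlap, and made up 75.5% to 79.2% of the sum of the 2 genes.

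GARP tethers carriers from endosomes at the Golgi apparatus and consists of Vps51, Vps52, Vps53 and Vps54. In EARP, which acts in recycling from endosomes, Vps50 takes the place of Vps54. Vps53 had the highest mean of the 5 genes at 71.4 TPM and Vps54 the lowest at 16.8 TPM, and Vps53 was 3.84 to 4.63 times as high as Vps54. Vps51 and Vps52, at means of 52.6 and 34.9 TPM, overlapped between the groups, as did Vps53. The EARP subunit Vps50 was at 39.4, 36.6 and 40.2 TPM in the fed and 42.9, 39.8 and 45.2 TPM in the fasted libraries, with overlap (log2 difference 0.14, SE 0.060). Over its coding transcripts the difference was 0.05, since the processed transcript Vps50-204 was at 0, 0 and 3.24 TPM in the fed and 4.98, 1.82 and 5.01 TPM in the fasted libraries.

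Vps54 is the gene mutated in the wobbler mouse, a strain that loses motor neurons. Its summed level hardly differed, at 16.1, 16.4 and 18.6 TPM in the fed and 16.2, 16.5 and 17.1 TPM in the fasted libraries, but its 2 main coding transcripts had log2 differences of opposite sign. Vps54-202 was at 10.7, 11.2 and 9.85 TPM in the fed and 7.77, 8.21 and 8.70 TPM in the fasted libraries. The groups did not overlap, at 10.6 ± 0.69 and 8.23 ± 0.47 TPM (SD, n = 3 each), a log2 difference of -0.33.

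Vps54-201 was at 4.19, 3.93 and 6.90 TPM in the fed and 7.03, 6.90 and 6.83 TPM in the fasted libraries, where fed replicate 3 reached the level of the fasted group. It held 26.0%, 23.9% and 37.0% of the gene's TPM in the fed and 43.5%, 41.8% and 40.03% in the fasted libraries, and these shares did not overlap. The 2 transcripts have coding lengths of 2931 and 2895 bases, and the 36 bases between them are the capitals printed for Vps54-201 at the start. Reads that miss the places where the 2 differ fit both, so their levels and shares are estimates. Shares were not compared over the transcripts of all genes. Neither transcript passed the threshold in limma's fit over 33197 transcripts, where 9 did (0.0271 percent).

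ESCRT-I recognises ubiquitin-tagged receptors at the endosome and contains Tsg101, Vps28 and 1 of 4 Vps37 paralogs. Vps28 was at 201.4, 176.6 and 195.5 TPM in the fed and 209.6, 201.2 and 212.4 TPM in the fasted libraries, and the groups overlapped by a narrow margin (log2 difference 0.12, SE 0.054). Vps37c was the highest of the paralogs, at 49.7, 47.4 and 47.2 TPM in the fed and 47.7, 47.7 and 50.7 TPM in the fasted libraries, or 54.8% of their sum on average. Vps28 was 3.73 to 4.40 times as high as Vps37c.

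The other Vps37 paralogs were lower and overlapped between the groups. Vps37a was at 23.4, 22.7 and 20.9 TPM in the fed and 24.6, 19.6 and 21.2 TPM in the fasted libraries, on average 24.97% of the sum. Vps37d was at 8.88, 8.96 and 10.7 TPM in the fed and 8.47, 10.9 and 9.93 TPM in the fasted libraries, and Vps37b at 7.77, 9.36 and 7.25 TPM and at 8.00, 8.54 and 8.16 TPM. The values of Vps37b and Vps37d overlapped, so their order was not set by these libraries.

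ESCRT-II, the next complex of the pathway, is formed by Vps36, Vps25 and Snf8. Vps36 (chr8:22192809-22220843, plus strand, GRCm38) was at 26.9, 24.8 and 27.4 TPM in the fed and 28.7, 28.3 and 29.4 TPM in the fasted libraries. The groups did not overlap, at 26.3 ± 1.39 and 28.8 ± 0.59 TPM (SD, n = 3 each), a log2 difference of 0.13 (SE 0.052), and all of it lay in the coding transcript Vps36-201. Vps25 was at 141.1, 125.3 and 134.5 TPM in the fed and 147.9, 135.2 and 140.9 TPM in the fasted libraries, with overlap. It was 4.79 to 5.25 times as high as Vps36.

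Vps4a and Vps4b are the ATPases that take the ESCRT-III polymer apart. Vps4a was at 114.3, 104.4 and 105.5 TPM in the fed and 106.6, 107.2 and 109.5 TPM in the fasted libraries, with overlap. Vps4b (chr1:106764071-106796728, minus strand, GRCm38) was at 122.0, 109.3 and 113.7 TPM in the fed and 128.5, 130.6 and 134.5 TPM in the fasted libraries. The groups did not overlap, at 115.0 ± 6.47 and 131.2 ± 3.02 TPM (SD, n = 3 each), a log2 difference of 0.19 (SE 0.048) or 1.14-fold.

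Within the pair, Vps4b made up 51.6%, 51.1% and 51.9% of the TPM in the fed and 54.7%, 54.9% and 55.1% in the fasted libraries, and these shares did not overlap. The distance between the groups lay mostly in 1 model. Vps4b-205, annotated as a retained intron and 709 bases long, was at 42.7, 37.1 and 37.9 TPM in the fed and 49.0, 53.3 and 51.0 TPM in the fasted libraries, without overlap (39.2 ± 3.03 and 51.1 ± 2.14 TPM, SD, n = 3 each, log2 difference 0.38). The main coding transcript Vps4b-201 was at 70.3, 63.4 and 66.3 TPM in the fed and 69.9, 69.5 and 72.9 TPM in the fasted libraries, with overlap.

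Vps4b-205 shares 700 of its 709 bases (98.7%) with the exons of Vps4b-201, and only the 9 capitals printed for it lie outside. A read that does not cover those 9 bases, or the ends of the model, fits both transcripts, so the deposited split between them is an estimate. Since TPM divides by length, reads assigned to a model of 709 bases weigh more than the same reads assigned to Vps4b-201 with 4633 bases. Over coding transcripts, Vps4b was at 75.5 ± 3.49 TPM in the fed and 79.8 ± 2.96 TPM in the fasted libraries (SD, n = 3 each), a log2 difference of 0.08, and its share of the pair was 41.6% to 43.1% over the 6 libraries, with overlap between the groups. Vps4a showed the reverse. Its retained-intron model Vps4a-203 was at 8.36, 2.93 and 0 TPM in the fed and 0, 0 and 0 TPM in the fasted libraries, and its coding sum was at 105.9, 100.8 and 104.5 TPM in the fed and 106.0, 106.8 and 109.4 TPM in the fasted libraries, without overlap by a margin far smaller than the spread of the fed values.

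**Figure D4:**
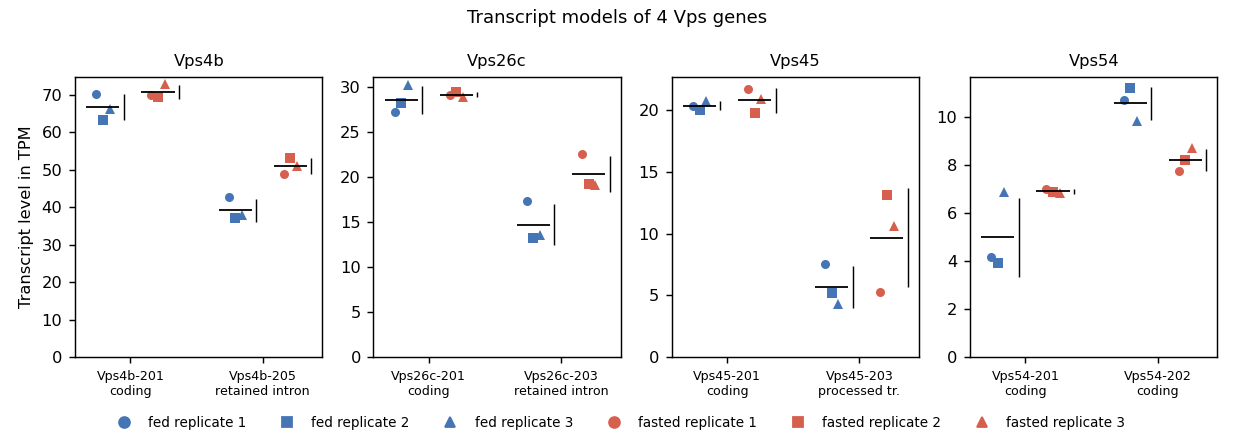
Level in TPM of 2 transcript models of Vps4b, Vps26c, Vps45 and Vps54 in the fed (blue) and fasted (red) libraries; points are libraries, horizontal bars means and vertical lines the SD (n = 3). The coding transcripts of Vps4b, Vps26c and Vps45 overlap between the groups, while Vps4b-205, Vps26c-203 and Vps54-202 do not.

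Vps45 is the SM protein that works with the SNARE protein Stx16 in traffic between endosomes and the trans-Golgi network. It had the largest log2 difference of the members, 0.22 (SE 0.085, 1.17-fold), yet its groups overlapped. It was at 28.3, 25.5 and 25.3 TPM in the fed and 27.1, 33.5 and 32.2 TPM in the fasted libraries, with fasted replicate 1 below fed replicate 1. The coding transcript Vps45-201 was at 20.4, 20.01 and 20.7 TPM in the fed and 21.7, 19.7 and 20.9 TPM in the fasted libraries. Vps45-203, a processed transcript of 266 bases of which 173 lie in the exons of Vps45-201, was at 7.57, 5.22 and 4.28 TPM in the fed and 5.26, 13.1 and 10.6 TPM in the fasted libraries. Over coding transcripts the log2 difference of Vps45 was 0.03.

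The 3 members with the largest differences, Vps45, Vps26c and Vps4b, thus differed little between the groups when non-coding models were left out. This rests on the deposited split of reads between models that share bases. Over the set, coding models held at least 90% of the TPM in 25 of 35 members and under 70% in 4, namely Vps16 (53.3%), Vps13d (54.2%), Vps26c (61.8%) and Vps4b (63.1%). In Vps16 the retained-intron model Vps16-202 was at 18.9, 18.8 and 13.8 TPM in the fed and 19.9, 19.97 and 16.9 TPM in the fasted libraries, and all of its 655 bases lie in the exons of Vps16-201. Non-coding models took 9.04%, 9.51% and 8.30% of the Vps sum in the fed and 9.41%, 11.9% and 8.77% in the fasted libraries, with overlap. Counted over coding transcripts, 31 of 35 members were higher in the fasted libraries, against 65.3 percent of all genes, and 3 did not overlap (Vps33b, Vps36 and Vps4a), against 14.4 percent of all genes.

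Counted by transcript, 96 models of Vps genes had a mean of at least 1 TPM, and 66 of them (68.8%) were higher in the fasted libraries, against 57.5% of 33197 transcripts of all genes. For 14 the groups did not overlap with fasted higher (14.6%, against 9.38 percent of all transcripts), and for 3 with fasted lower (Vps54-202, Vps35l-201 and Vps9d1-203), against 4.98 percent of all transcripts. Of 13 retained-intron models of Vps genes, 8 were higher and 3 did not overlap, while of 3259 such models of all genes 44.2% were higher and 4.2% did not overlap with fasted higher. No transcript of a Vps gene passed the threshold, and the smallest adjusted p in limma was 0.58. In Vps35l, Vps35l-201 was at 5.45, 6.31 and 6.00 TPM in the fed and 1.82, 0.96 and 4.42 TPM in the fasted libraries, beside the main model Vps35l-204 at 29.3, 28.6 and 29.4 TPM and at 29.7, 32.9 and 32.5 TPM.

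VPS13 proteins are long bridges that carry lipids between membranes at contact sites, and each of the 4 human genes is linked to a neurological or developmental disease. Vps13a was at 24.7, 27.7 and 28.4 TPM in the fed and 27.6, 27.3 and 29.1 TPM in the fasted libraries. Vps13d was at 23.3, 24.8 and 26.8 TPM in the fed and 25.7, 31.1 and 26.6 TPM in the fasted libraries (log2 difference 0.15, SE 0.084). Vps13c was at 14.7, 16.5 and 16.6 TPM in the fed and 15.9, 16.3 and 19.6 TPM in the fasted libraries.

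Vps13b, the lowest of the 4, was at 6.77, 9.02 and 8.03 TPM in the fed and 8.31, 7.47 and 8.98 TPM in the fasted libraries. All 4 overlapped between the groups. Vps13a and Vps13d held 34.98% and 33.6% of the family's TPM on average, and their ranges over the 6 libraries overlapped, so these 2 had no set order over all models. Over coding transcripts alone Vps13a lay above Vps13d in every library, at 24.1 ± 2.45 and 13.8 ± 1.22 TPM in the fed libraries (SD, n = 3 each). In the fasted libraries Vps13a and Vps13d were then at 26.3 ± 2.27 and 14.8 ± 1.00 TPM. Vps13c, at 15.8 ± 1.01 TPM in the fed and 17.1 ± 1.77 TPM in the fasted libraries, also lay above Vps13d. This order rests on shorter coding models, such as Vps13a-212 (971 bases, mean 11.1 TPM) and Vps13c-202 (5945 bases, mean 10.1 TPM). The longest coding models Vps13a-201, Vps13c-201 and Vps13d-202 had means of 8.66, 6.32 and 8.32 TPM. The ranges of Vps13a-201 and Vps13d-202 overlapped. In Vps13d the coding models held 54.2% of the TPM, the rest lying mainly in processed and nonsense-mediated decay models.

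The rule on names also took in 2 genes outside the sorting complexes. Vps72 is a subunit of the SRCAP chromatin remodelling complex, which places the histone variant H2A.Z. Vps72 was at 27.4, 30.1 and 29.6 TPM in the fed and 30.5, 30.9 and 30.8 TPM in the fasted libraries, without overlap (29.0 ± 1.46 and 30.7 ± 0.21 TPM, SD, n = 3 each, log2 difference 0.08, SE 0.049). The groups overlapped after median-of-ratios scaling and over coding transcripts. Vps9d1 carries a VPS9 domain, a fold found in activators of Rab5, and was at 24.0, 21.4 and 22.5 TPM in the fed and 23.0, 22.1 and 21.8 TPM in the fasted libraries, with overlap.

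Partner genes of the complexes were listed beside the members. Of 106 names, 100 matched genes that are not members and 99 had a mean of at least 1 TPM, the exception being Chmp4c. By fold change 76 of the 99 were higher and 23 lower in the fasted libraries (76.8% higher, against 62.5 percent of all genes), and none passed limma's threshold. The groups did not overlap for 11 with fasted higher, against 12.7 percent of all genes, and for 4 with fasted lower, against 5.07 percent. At an unadjusted p under 0.05 in limma, 5 were higher and 2 lower, against 6.72 percent and 3.22 percent of all genes. Their median log2 difference was 0.04, and without mitochondrial genes in the total it was 0.011 with 55 higher. After median-of-ratios scaling 61 were higher and 38 lower.

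By role, 9 of 10 sorting nexins and other retromer partners were higher (6 of 10 after median-of-ratios scaling). Snx32 was at 68.4 ± 6.42 TPM in the fed and 74.1 ± 1.27 TPM in the fasted libraries, without overlap, but its groups overlapped after scaling. Snx6 was at 133.9 ± 7.14 and 140.5 ± 0.51 TPM, with overlap (SD, n = 3 each, for Snx32, Snx6 and the partners named after them). Of 5 subunits of WASH, which builds actin on endosomes, 4 were higher (3 after scaling), with Washc2 at 53.5 ± 1.93 and 55.2 ± 1.80 TPM and Washc1 at 36.4 ± 0.74 and 37.6 ± 2.21 TPM, both with overlap. Of 7 sorting receptors, cargo of retromer, 5 were higher (4 after scaling). Sorl1, which sorts the amyloid precursor protein, was at 64.0 ± 1.58 and 72.1 ± 1.89 TPM (log2 difference 0.17, SE 0.041), and Sorcs2 at 7.47 ± 0.75 and 6.52 ± 0.21 TPM, both without overlap. Among the 13 tested partners of retriever, 9 were higher and 4 lower (7 and 6 after scaling). Commd1 was at 75.3 ± 2.05 TPM in the fed and 68.0 ± 1.90 TPM in the fasted libraries and Commd4 at 77.4 ± 2.02 and 69.9 ± 2.80 TPM, both without overlap. Both lay on the opposite side from the all-model sum of Vps26c, whose log2 difference over coding transcripts was 0.03.

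Of the 20 other ESCRT genes tested, 17 were higher (15 after median-of-ratios scaling). Chmp3, a subunit of the ESCRT-III polymer, was at 227.7 ± 4.77 TPM in the fed and 247.0 ± 8.90 TPM in the fasted libraries and Mvb12b, of ESCRT-I, at 45.4 ± 0.83 and 43.1 ± 0.94 TPM, both without overlap. Of 14 partners of HOPS and CORVET 10 were higher (9 after scaling). Among them were the early endosome GTPases Rab5a at 170.5 ± 8.07 and 184.1 ± 4.58 TPM and Rab5b at 196.0 ± 8.03 and 206.0 ± 1.36 TPM, both without overlap. Rab5c, also listed, was at 129.3 ± 3.35 and 127.6 ± 2.92 TPM, with overlap. After scaling, all fasted values of Rab5c lay below all its fed values. All 5 GARP and EARP partners were higher by fold change (3 after scaling), with Eipr1 at 27.9 ± 1.33 and 30.4 ± 1.25 TPM and Vamp4 at 146.5 ± 7.86 and 156.2 ± 4.83 TPM, both with overlap.

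All 6 genes listed beside the VPS13 family (Vapa, Vapb, Xk, Atg2a, Atg2b and Mospd2) were higher by fold change, also after scaling. Xk, a membrane partner of Vps13a, was at 14.1 ± 0.43 TPM in the fed and 15.6 ± 0.57 TPM in the fasted libraries, without overlap, and Mospd2 at 24.95 ± 3.59 and 27.8 ± 1.47 TPM, with overlap. Of 11 genes of the complexes that make or remove the lipid PI3P, 7 were higher (6 after scaling). Pik3r4, the mammalian Vps15, was at 19.3 ± 0.49 and 21.6 ± 0.87 TPM, without overlap, and the PI3P phosphatase Mtmr2 at 64.3 ± 3.45 and 69.5 ± 2.24 TPM, with overlap. Of 8 SRCAP genes beside Vps72, 4 were higher and 4 lower (2 and 6 after scaling), with Ruvbl1 at 42.8 ± 1.10 and 45.7 ± 0.91 TPM, without overlap, and Znhit1 at 105.4 ± 4.72 and 98.3 ± 3.54 TPM, with overlap.

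Promoter sequence was compared as a feature the choice of genes did not use. RefSeq promoters (build GRCm38.p6, from 250 bases before to 50 after each start) matched 22 of the 35 members with 27 promoters. The E-box CACGTG occurred in 5 of them, in Vps16, Vps26a, Vps33a and Vps50, and in 7.15% of 32851 promoters. The longer motif TCACGTGA, which contains that E-box and is the core of a site known for TFEB and related regulators of lysosomal genes, occurred in 4 promoters of 3 members, Vps16, Vps33a and Vps26a, and in 0.974% of all promoters. Both motifs read the same on either strand.

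The longer motif is in capitals in the 4 stretches, each of which lies wholly before its own RefSeq start and is read on the gene's strand. The second Vps26a stretch and part of the Vps33a stretch lie inside the gene bounds of GENCODE M21.
Vps16 (chr2:130424260-130424319, plus strand): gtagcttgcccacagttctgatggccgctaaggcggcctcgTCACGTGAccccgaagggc
Vps33a (chr5:123573016-123573075, minus strand): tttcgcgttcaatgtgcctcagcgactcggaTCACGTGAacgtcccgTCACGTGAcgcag
Vps26a, first start (chr10:62486956-62487015, minus strand): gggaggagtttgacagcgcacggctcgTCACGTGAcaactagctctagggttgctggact
Vps26a, second start (chr10:62486718-62486777, minus strand): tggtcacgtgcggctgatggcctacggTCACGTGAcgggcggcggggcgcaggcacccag
The motif begins 19 bases before the start in Vps16, 29 and 13 before it in Vps33a, and 183 and 152 before the 2 starts of Vps26a. The log2 differences of these 3 genes, in the order Vps16, Vps33a and Vps26a, were 0.09, 0.10 and 0.08, and each overlapped between fed and fasted libraries. A match describes these letters and is not evidence of binding.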

How the data were processed

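The authors deposited a single table of TPM for every transcript. The submitters' processing notes name Salmon 1.6.0, Trim Galore 0.6.6, FastQC 0.11.9 and DESeq2 1.34.0 and the builds GRCm38 and mm10, without roles or order and with no annotation release. Libraries were made with a stranded kit for polyadenylated RNA, per the labels. TPM keeps no depth, so count tests do not apply and low values have no known precision.

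Transcript values were added up per gene symbol. Genes averaging 1 TPM or more were compared as log2(TPM + 1) with limma 3.58.1 in R 4.3.3 (group as the only term, intensity trend, two-sided, Benjamini-Hochberg threshold 0.05). With a pseudocount of 1, fold changes of low genes are understated. Transcripts were fitted in the same way. The fit was tested on simulated data, with changes larger than any member showed. That test does not tell how well differences of the members' size would be called. Types and exons came from GENCODE M21, which held 98.7% of the deposited transcript versions (99.1% when the version is ignored); promoters came from RefSeq. Figures were drawn with matplotlib 3.10.9.

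The members, the partner and marker lists and the rule for named genes were chosen with earlier results of these data known. Named in full are members whose groups do not overlap, the 6 with the largest fold change, those nearest the limit and paralog sets; of each partner list, called genes or else the 2 with the smallest p. Alternatives were other pseudocounts and filters, median-of-ratios and quantile scaling, totals without mitochondrial genes, coding transcripts alone, a replicate block and each library left out in turn.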

Additional observations from a re-analysis of the deposited data

How the results depend on the processing

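No Vps gene or partner passed the threshold under any setting run, and no Vps transcript did in the fits run for transcripts (a mean of at least 1 or 5 TPM, and each library left out). The number of all genes called by limma, 1 as reported, was 2 with a pseudocount of 0.1 or 0.5, 0 with no filter on low values and 0 over protein-coding transcripts alone, and 1 to 7 in the fits that leave out 1 library (7 without fed replicate 3). The members' median log2 difference of 0.07 was 0.039 after quantile normalization and 0.042 without mitochondrial genes, and 0.043 (without fed replicate 2) to 0.092 (without fed replicate 3) with a library left out. The partners' median of 0.04 was 0.0094 and 0.011 under those scalings and 0.021 to 0.053 with a library left out. Members without overlap, 6 as reported, numbered 3 over coding transcripts, and 7 to 17 with a library left out (17 without fed replicate 1, 13 without fasted replicate 2), where fewer values have to be separated by construction; over all genes these settings gave 14.4% over coding transcripts and 16.8% to 22.6% with a library left out (21.8% and 20.02% in the 2 named). The cause of the other shifts was not tested. Among single members, Vps26b was at 0.0011, -0.0045 and -0.0049 under median-of-ratios, quantile and non-mitochondrial scaling, and Vps26c, Vps45, Vps4a, Vps4b and Vps50 shifted by more than their spread over coding transcripts. With the replicate block 1 gene and 0 members were called; deviations of same-numbered libraries correlated at 0.093, 0.114 and 0.066, so the numbers were not taken to pair the libraries. TPM keeps no depth, and models that share most of their bases, such as Vps4b-205 and Vps4b-201, cannot be separated more firmly than the deposited estimates do.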
